A study of Mus musculus with 4 samples.

Results

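The glutathione S-transferase (GST) genes were followed in mouse ovarian GCs (granulosa cells, which enclose the oocyte in the follicle) after exposure to HDACi 4b. This compound inhibits the histone deacetylase HDAC3 and, less strongly, HDAC1. Family members were taken by name, as every listed gene symbol that names a cytosolic or mitochondrial GST of the alpha, mu, pi, theta, omega, kappa or zeta class or a microsomal GST, leaving out Gstcd and pseudogene symbols ending in -ps. This rule gave 25 of the 25239 genes in the expression table: 4 alpha, 7 mu, 3 pi, 4 theta, 2 omega, 1 kappa, 1 zeta and 3 microsomal genes. The cells were GCs of wild-type C57BL/6 mice, labelled as postnatal day 24 and, by the series design, kept in culture. The con group (2 libraries) was the control and the HDACi 4b group (2 libraries) received the inhibitor. The labels give neither the dose, the length of exposure nor what the control cells received. Their treatment and extraction notes describe tamoxifen given to Hdac3-floxed mice and frozen whole ovaries, which goes against the titles and the design, and the titles and the design were followed. The labels do not say whether replicates were separate cultures, so every p-value measures the spread between libraries, which may be technical.

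GSTs join the tripeptide glutathione to electrophilic compounds, which makes those compounds more soluble and ready for export, and several members also reduce organic peroxides. The cytosolic classes form dimers within a class, the kappa enzyme works in mitochondria and peroxisomes, and the microsomal (MAPEG) enzymes are unrelated membrane proteins. Many family genes are known targets of NRF2, a stress-activated transcription factor that binds antioxidant response elements, and alpha-class enzymes are well known from steroid-making cells.

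Several members are near-identical copies, so the first 120 coding bases of the closest pairs are shown to make clear what a short read can and cannot separate. They come from the GENCODE M21 gene models on GRCm38, read 5′ to 3′ from the start codon, with capitals at bases that differ between the partners.
Gsta1: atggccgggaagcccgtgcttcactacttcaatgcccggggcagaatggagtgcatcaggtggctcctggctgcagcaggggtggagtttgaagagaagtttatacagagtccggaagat
Gsta2: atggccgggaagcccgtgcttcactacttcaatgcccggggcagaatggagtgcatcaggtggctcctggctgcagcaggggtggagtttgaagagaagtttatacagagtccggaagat
Gstp1: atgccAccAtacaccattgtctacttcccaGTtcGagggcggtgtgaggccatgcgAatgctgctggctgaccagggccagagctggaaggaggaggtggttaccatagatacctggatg
Gstp2: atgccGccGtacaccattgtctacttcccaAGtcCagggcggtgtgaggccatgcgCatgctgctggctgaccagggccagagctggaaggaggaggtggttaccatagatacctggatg

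The Gsta1 and Gsta2 stretches were identical over all 120 bases, and their whole coding sequences were 98.0% identical. Gstp1 and Gstp2 differed at 6 of 120 bases here and were 98.1% identical over the 630 coding bases. Counted over every 50-base stretch of each gene's exons, 90.5% of Gsta1 and 49.8% of Gsta2 occurred in another gene as well, as did 33.7% of Gstp1 and 54.3% of Gstp2. No 50-base stretch of Gsta4, Gstm4, Gstp3, Gstt1, Gstt4, Gsto1, Gsto2, Gstk1, Mgst1 or Mgst3 was shared with another gene. No source read here tells how reads were divided among copies, so the values of Gsta1, Gsta2, Gstp1 and Gstp2 as single genes are uncertain.

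The 250 bases before the start were taken from RefSeq (GRCm38.p6) for 23 of the 25 members, which gave 32 windows. Gsta4 and Gstt2 had no entry. Windows of 4 members are printed because 2 of them (Gstp1 and Gstp2) belong to the closest copies and 2 (Gsta3 and Mgst1) hold the antioxidant response element core TGACNNNGC. Capitals mark that core, the GC box GGGCGG and the AP-1 site TGAGTCA, each searched on both strands, and a base just before the start is at -1.
Gstp1, chr19:4037913-4038162, minus strand: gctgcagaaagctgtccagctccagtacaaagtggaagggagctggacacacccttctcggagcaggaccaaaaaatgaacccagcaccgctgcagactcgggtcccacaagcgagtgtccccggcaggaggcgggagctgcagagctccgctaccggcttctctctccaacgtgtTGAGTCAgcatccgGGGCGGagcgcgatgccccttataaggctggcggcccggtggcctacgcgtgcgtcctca
Gstp2, chr19:4042222-4042471, minus strand: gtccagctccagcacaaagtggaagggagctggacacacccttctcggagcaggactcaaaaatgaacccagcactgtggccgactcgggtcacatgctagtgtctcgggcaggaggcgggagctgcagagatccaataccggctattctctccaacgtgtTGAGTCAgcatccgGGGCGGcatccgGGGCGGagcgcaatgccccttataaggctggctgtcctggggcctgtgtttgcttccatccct
Gsta3, chr1:21240335-21240584, plus strand: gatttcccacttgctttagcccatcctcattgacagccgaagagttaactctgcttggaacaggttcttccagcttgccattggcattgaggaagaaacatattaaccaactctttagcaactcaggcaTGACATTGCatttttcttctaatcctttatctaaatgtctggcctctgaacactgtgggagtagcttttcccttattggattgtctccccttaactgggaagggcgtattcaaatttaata
Mgst1, chr6:138140277-138140526, plus strand: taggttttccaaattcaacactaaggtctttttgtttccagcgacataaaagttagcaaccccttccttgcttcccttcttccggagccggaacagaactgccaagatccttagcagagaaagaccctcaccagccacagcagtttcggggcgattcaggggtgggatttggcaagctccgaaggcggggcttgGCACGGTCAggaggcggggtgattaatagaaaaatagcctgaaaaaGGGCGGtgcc

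The Gstp1 and Gstp2 windows were 88.5% identical over the aligned bases, and both held the AP-1 letters followed by a GC box. The AP-1 letters began at -74 in Gstp1 and at -89 in Gstp2, which carries a second GC box. The Gsta1 and Gsta2 windows were 77.0% identical, and neither held any of the 3 motifs. The antioxidant response element core began at -121 in Gsta3 and at -56 in Mgst1, on the minus strand there, and was also in a window of Gstm5 and of Gstm7. It was thus in 4 of the 32 windows, against 10.2% of the 32851 mouse promoter windows of that length. The GC box was in 14 of the 32 windows (32.7% of all windows) and the AP-1 letters, searched for after these windows had been looked at, in 4 (4.46% of all windows). A match is a description of letters, and no promoter activity was measured.

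Values are FPKM, read counts scaled to the exon length of the gene and to the depth of the library. Library totals recovered from the table ran from 15951875 to 17665107 reads. Differences were tested with limma on log2(FPKM + 1) over the 12054 genes whose mean reached 1 FPKM, two-sided, with Benjamini-Hochberg adjusted p-values over all of them. A difference on this scale, written here as HDACi 4b minus con with its standard error, understates the change of a gene with low FPKM. Calls at an adjusted p under 0.05 covered 60.5% of all tested genes, 22.4% higher and 38.1% lower with HDACi 4b. The median difference over all tested genes was -0.15, and scaling the libraries by their median ratio moved it to -0.01 and the share of higher calls from 37.0% to 50.3%. Each count of members below is to be read against this wide background.

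The GST transcripts were mostly higher with HDACi 4b. Of the 25 members 21 were tested, and 18 rose, 1 fell (Gstz1) and 2 did not pass the test (Gstm1 and Gstt2), against 22.4% of all tested genes called higher. Among the 18, 13 rose by at least 1 on the log2 scale, against 7.54% of all tested genes. The 2 groups did not overlap for the 18 higher members and for Gstz1, against 31.1% of all tested genes fully higher and 52.0% fully lower. Gsta1, Gsta2, Gsta3, Gstp2 and Gstt3 had con means under 1 FPKM and passed the filter only through the treated libraries. The other 16 tested members had both group means at 1 FPKM or more, and of these 13 rose, 1 fell and 2 were not called. Their median difference was 1.00. It was -0.15 for all tested genes, which were not held to that limit in both groups. Of the 13, 8 rose by at least 1. Gstm3, Gstp3, Gsto2 and Gstt4 stayed under the filter. Scaling the libraries by their median ratio raised HDACi 4b against con for every gene, so the 18 higher members could not change direction under it. Gstz1, which could, stayed lower, with a difference of -0.61.

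**Figure D1:**
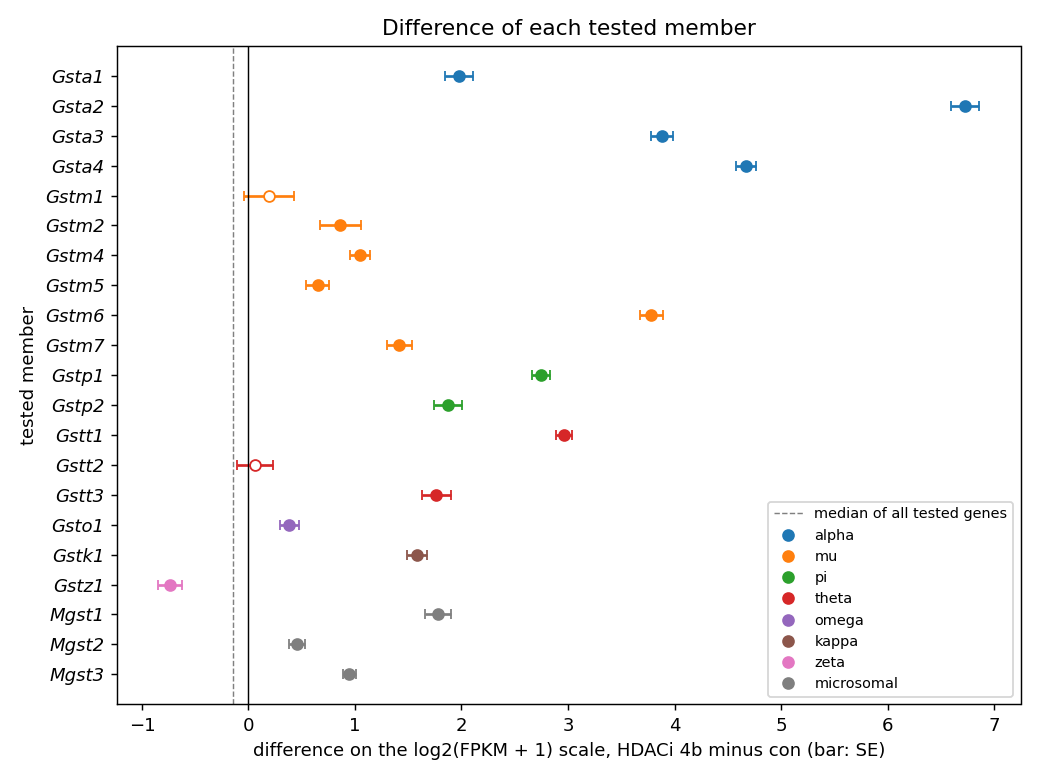
Difference of each of the 21 tested members on the log2(FPKM + 1) scale, HDACi 4b minus con, with bars for the standard error. Filled points passed the adjusted p threshold, open points (Gstm1 and Gstt2) did not, and the dashed line is the median of all tested genes at -0.15. Gsta2 lies farthest right at 6.73 and Gstz1 is the one called member left of 0, at -0.74.

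Cell type markers are given beside the same background of 22.4% of tested genes called higher and 38.1% called lower. Of 13 tested granulosa markers 2 rose and 6 fell, shares near that background, and their summed level was 1986 to 2157 FPKM in con and 816 to 953 FPKM with HDACi 4b. All 5 tested theca and stroma markers fell, from sums of 208.7 to 336.8 FPKM to 39.2 to 67.6 FPKM, and 2 of the 5 calls (Acta2 and Col3a1) held in all 9 alternatives. All 6 tested leukocyte markers fell, from sums of 83.2 to 125.1 FPKM to 23.0 to 26.6 FPKM, and 5 of the 6 calls held in all 9 alternatives. Of these 6, 3 had treated means under 1 FPKM and were tested only through their con level. The other 3, with both group means at 1 FPKM or more, all fell. One marker each of endothelium and surface epithelium was tested, each only through its treated level, and rose. The endothelium call held in every alternative that tested it, and the surface epithelium call did not. The surface epithelium sums overlapped, at 3.37 to 4.74 FPKM in con and 2.71 to 5.26 FPKM with HDACi 4b. The single tested oocyte marker was not called. No marker on these lists was at 0 in all 4 libraries. In bulk RNA, fewer cells of a type and less RNA per cell cannot be told apart, and the part of these differences in the GST results was not tested.

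The alpha class, whose enzymes conjugate and reduce products of lipid peroxidation, rose as a whole. Gsta4, known for handling the aldehyde 4-hydroxynonenal, was at 29.2 and 24.95 FPKM in the con libraries and at 691.2 and 729.8 FPKM in the HDACi 4b libraries. Its mean went from 27.1 ± 2.98 to 710.5 ± 27.3 FPKM (SD, n = 2 each), a ratio of 26.3, with a difference of 4.67 ± 0.093 (adjusted p = 4.57e-05). This gene has no near copy, and 1165 con reads stood against 28928 treated reads. Gsta2 was at 0.517 and 0.289 FPKM in con and at 163.3 and 132.6 FPKM with HDACi 4b, a ratio of 367.3 and a difference of 6.73 ± 0.14 (adjusted p = 5.12e-05). It rested on 10 and 6 con reads, and the ratio of reads scaled to library totals was 371.4 with a 95% counting interval of 228.5 to 650.2. Gsta2 thus went from a few reads to a level that overlapped with that of Gstm2.

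Gsta3, which in the mouse detoxifies the aflatoxin epoxide, was at 0.742 and 0.508 FPKM in con and at 23.9 and 22.1 FPKM with HDACi 4b. The ratio was 36.8 and the difference 3.89 ± 0.10 (adjusted p = 6.42e-05). Only 0.273% of its exon stretches are shared with another gene, none of them with Gsta1 or Gsta2. Gsta1 was at 0.127 and 0 FPKM in con and at 3.35 and 3.02 FPKM with HDACi 4b, with a difference of 1.98 ± 0.13 (adjusted p = 0.000298). Its con level rested on 2 reads in all, and the read ratio of 51.9 had a 95% counting interval of 14.0 to 435.0. In the treated libraries its FPKM was 2.05% and 2.28% of that of Gsta2. Whether it reflects reads of Gsta2 and its other copies was not tested. Counting intervals here and below cover counting error only, and a library with 0 reads allows an expected count of up to 3.

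In the pi class, Gstp1, the GST most widely made outside the liver, had the highest mean of the family with HDACi 4b, although Mgst1 lay above it in HDACi 4b replicate 2. It was at 123.2 and 121.7 FPKM in con and at 881.5 and 773.7 FPKM with HDACi 4b. The mean went from 122.4 ± 1.08 to 827.6 ± 76.2 FPKM, a ratio of 6.76 and a difference of 2.74 ± 0.085 (adjusted p = 6.83e-05). Gstp2, its near copy, was at 0.158 and 0 FPKM in con and at 3.04 and 2.85 FPKM with HDACi 4b (difference 1.87 ± 0.13, adjusted p = 0.000367). The smallest whole reads that give those values are 2 and 0 in con and 38 and 35 with HDACi 4b, and on them the ratio of 38.7 has an interval of 10.3 to 325.6. Gstp2 stood at 0.345% and 0.368% of the Gstp1 level in the treated libraries, and a contribution of Gstp1 reads to it was not tested. Gstp3, which has no shared stretch, was under the filter at 0 and 0.0798 FPKM in con and 0.957 and 0.707 FPKM with HDACi 4b. Without the filter its adjusted p was 0.0130, on smallest whole reads of 0 and 1 against 11 and 8.

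The pseudogene Gstp-ps, outside the family rule and named after its values were seen, was at 7.91 and 8.79 FPKM in con and at 63.5 and 61.2 FPKM with HDACi 4b. Its difference of 2.76 ± 0.076 lay beside that of Gstp1, and its FPKM was 6.42% to 7.91% of that of Gstp1 in every library. Of the Gstp1 stretches 20.3% occur in it, and whether its reads came from Gstp1 was not tested.

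The mu class had the greatest summed level in con GCs, and its members did not move as 1 block: of 6 tested, 5 rose and Gstm1 was not called. Gstm1, the leading family transcript in con, was at 270.9 and 429.0 FPKM in con and at 408.9 and 373.1 FPKM with HDACi 4b. The groups overlapped and the difference of 0.20 ± 0.24 did not pass the test (adjusted p = 0.509). The 2 con libraries decide this value, since without con replicate 1 the difference was -0.14 and without con replicate 2 it was 0.53 and passed the test (adjusted p = 0.00737, over a range of 0.00737 to 0.768 across 9 alternatives). Of its stretches 18.9% are shared, among others with Gstm3 and the pseudogene Gstm2-ps1. Gstm2 was at 67.4 and 96.0 FPKM in con and at 157.6 and 137.5 FPKM with HDACi 4b, a ratio of 1.81. Its difference of 0.86 ± 0.19 passed (adjusted p = 0.0170) but no longer did without either HDACi 4b library (adjusted p up to 0.0903).

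Among the tested mu genes Gstm6 had the greatest ratio. It rose from 1.25 and 1.28 FPKM to 33.3 and 27.4 FPKM, a ratio of 23.9 and a difference of 3.78 ± 0.11 (adjusted p = 6.74e-05). Its reads went from 41 and 45 to 1074 and 869, and 5.97% of its stretches are shared. Gstm7 went from 14.2 and 14.4 FPKM to 44.8 and 35.5 FPKM, a ratio of 2.80 and a difference of 1.42 ± 0.12 (adjusted p = 0.000655). Gstm4, with no shared stretch, went from 8.34 and 7.93 FPKM to 19.3 and 16.5 FPKM, a ratio of 2.20 and a difference of 1.05 ± 0.095 (adjusted p = 0.000696). All 3 had fully separate groups, at lower levels than Gstm1 and Gstm2. Gstm5, in mice mostly a brain and testis gene, went from 15.4 and 15.6 FPKM to 27.6 and 22.4 FPKM (ratio 1.61, difference 0.65 ± 0.11, adjusted p = 0.00504). Of the Gstm5 stretches 9.44% lie in 4933431E20Rik as well. Gstm3 stayed under the filter at 0.0928 and 0 FPKM in con and 1.36 and 0.861 FPKM with HDACi 4b. Its reads were 2 and 0 against 29 and 18, a ratio of 24.9 with an interval of 6.52 to 211.8, and 28.8% of its stretches are shared. All 7 mu genes lie together on chromosome 3, and within this cluster the ratios of tested genes ranged from 1.12 (Gstm1) to 23.9 (Gstm6).

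**Figure D2:**
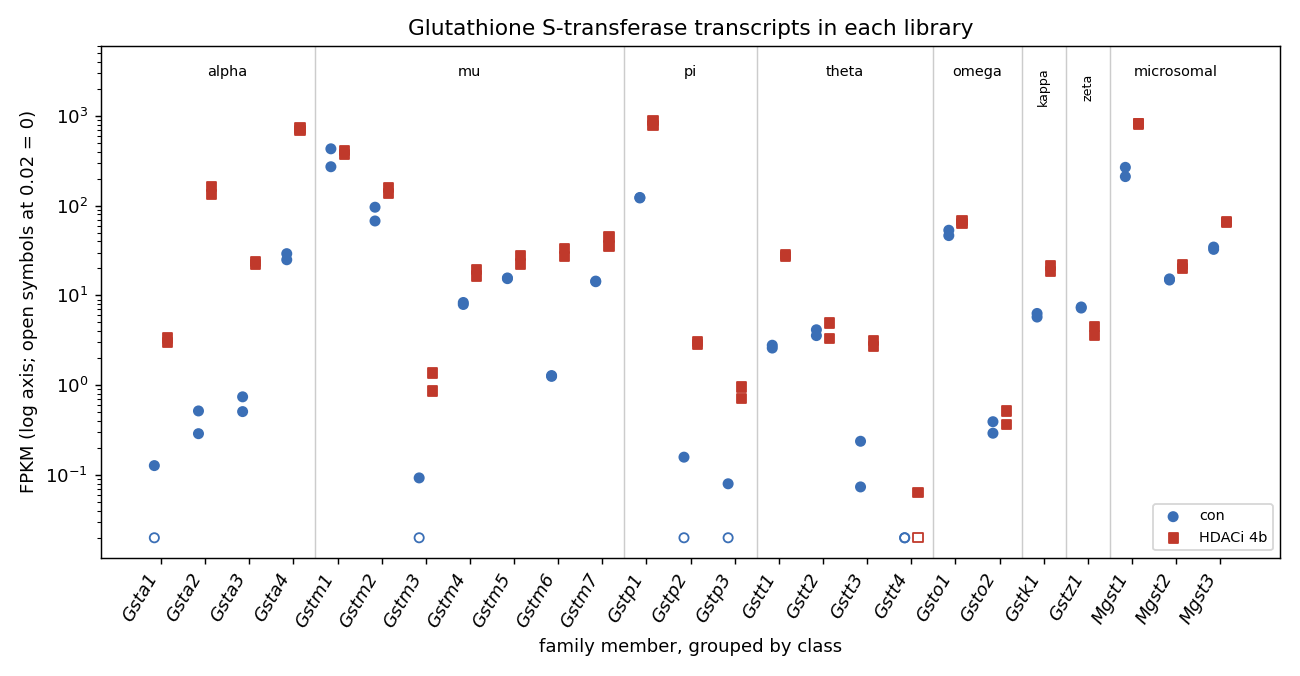
FPKM of all 25 members in each library on a log axis, circles for the 2 con and squares for the 2 HDACi 4b libraries, grouped by class, with open symbols for a value of 0. The treated squares lie above the con circles for 20 members, overlap for Gstm1, Gstt2, Gsto2 and Gstt4, and lie below for Gstz1.

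In the theta class, Gstt1, which acts on small halogenated compounds, rose from 2.79 and 2.59 FPKM to 27.2 and 28.3 FPKM. The ratio was 10.3 and the difference 2.96 ± 0.073 (adjusted p = 5.42e-05), on 140 con and 1366 treated reads with no shared stretch. Gstt3 went from 0.238 and 0.0737 FPKM to 3.13 and 2.71 FPKM, a difference of 1.76 ± 0.14 (adjusted p = 0.000470). Its reads were 15 and 5 against 195 and 166, a ratio of 19.1 with an interval of 12.2 to 31.7. Of its exon stretches 12.5% are shared with another gene, most of them with Gm20441 (12.2%). Gstt2 was not called, with 4.14 and 3.57 FPKM in con and 3.32 and 4.92 FPKM with HDACi 4b. Its groups overlapped, and the difference of 0.06 ± 0.17 did not pass (adjusted p = 0.775) and changed sign without con replicate 2 (-0.02) or without HDACi 4b replicate 2 (-0.16). Gstt4 was listed at 0 apart from 1 read in HDACi 4b replicate 2. The 4 theta genes lie on chromosome 10, with coding sequences 62.9% to 75.7% identical to each other.

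The 3 microsomal genes rose, each with groups that did not overlap. Mgst1, an enzyme of the endoplasmic reticulum and outer mitochondrial membrane that conjugates and reduces lipid peroxides, was at 266.8 and 210.5 FPKM in con and at 823.3 and 808.6 FPKM with HDACi 4b. Its mean went from 238.6 ± 39.8 to 816.0 ± 10.4 FPKM, a ratio of 3.42 and a difference of 1.78 ± 0.12 (adjusted p = 0.000407). Its mean ranked second in both groups, and in the treated libraries it overlapped with Gstp1. Mgst3 went from 32.6 and 34.5 FPKM to 64.99 and 66.2 FPKM (ratio 1.96, difference 0.95 ± 0.065, adjusted p = 0.000336). Mgst2, which can also make leukotriene C4, went from 14.8 and 15.3 FPKM to 20.0 and 22.0 FPKM (ratio 1.40, difference 0.46 ± 0.075, adjusted p = 0.00466). The ratio was greatest for Mgst1, the most abundant of the 3.

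Among the remaining classes, Gstk1, the mitochondrial and peroxisomal enzyme, went from 6.29 and 5.74 FPKM to 21.4 and 18.6 FPKM. The ratio was 3.32 and the difference 1.58 ± 0.094 (adjusted p = 0.000241). Gsto1, which reduces dehydroascorbate and mixed disulfides, went from 53.2 and 46.4 FPKM to 67.7 and 62.8 FPKM, a ratio of 1.31. Its difference of 0.39 ± 0.090 passed (adjusted p = 0.0148) but not without either HDACi 4b library (adjusted p up to 0.105). Gsto2, under the filter, was at 0.392 and 0.292 FPKM in con and 0.517 and 0.364 FPKM with HDACi 4b, and the groups overlapped. Gstz1, which isomerizes maleylacetoacetate in tyrosine breakdown, was the one member that fell, from 7.23 and 7.43 FPKM to 3.56 and 4.48 FPKM. The ratio was 0.549 and the difference -0.74 ± 0.11 (adjusted p = 0.00336), against 38.1% of all tested genes called lower. Of its exon stretches 7.24% lie in Pomt2 as well, and the call held in all 9 alternatives.

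Summed by class, which moves less with how reads were split among close copies, the family changed in size and in make-up. The family total was 919.9 and 1038 FPKM in con and 3495 and 3297 FPKM with HDACi 4b, a ratio of 3.47. That was 0.283% and 0.316% of all FPKM in con and 1.01% and 0.956% with HDACi 4b. The alpha total went from 28.2 ± 3.40 to 884.6 ± 4.03 FPKM, a ratio of 31.4, and from 2.88% to 26.05% of the family. The pi total went from 122.5 ± 1.13 to 831.4 ± 76.5 FPKM, a ratio of 6.78, and from 12.5% to 24.5% of the family. The microsomal total went from 287.2 ± 38.1 to 902.6 ± 8.06 FPKM (ratio 3.14) and held a like share, 29.3% and 26.6%. These 3 classes carried most of the added FPKM.

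The mu total moved less, from 470.9 ± 132.0 to 653.1 ± 56.3 FPKM (ratio 1.39), so its share went from 48.1% to 19.2% of the family. Its con libraries held 377.6 and 564.2 FPKM, and the ratio was 1.73 without con replicate 2 and 1.16 without con replicate 1. Theta went from 6.70 ± 0.658 to 34.9 ± 1.66 FPKM (ratio 5.203) and omega from 50.1 ± 4.88 to 65.6 ± 3.57 FPKM (ratio 1.31). Class totals were described without a test. In con the order of the leading transcripts was Gstm1, Mgst1, Gstp1, Gstm2, Gsto1, Mgst3 and Gsta4. With HDACi 4b it was Gstp1, Mgst1, Gsta4, Gstm1, Gsta2, Gstm2 and Mgst3. In the treated libraries Gstp1 overlapped with Mgst1 and Gsta2 with Gstm2, so these neighbours did not differ beyond their spread.

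**Figure D3:**
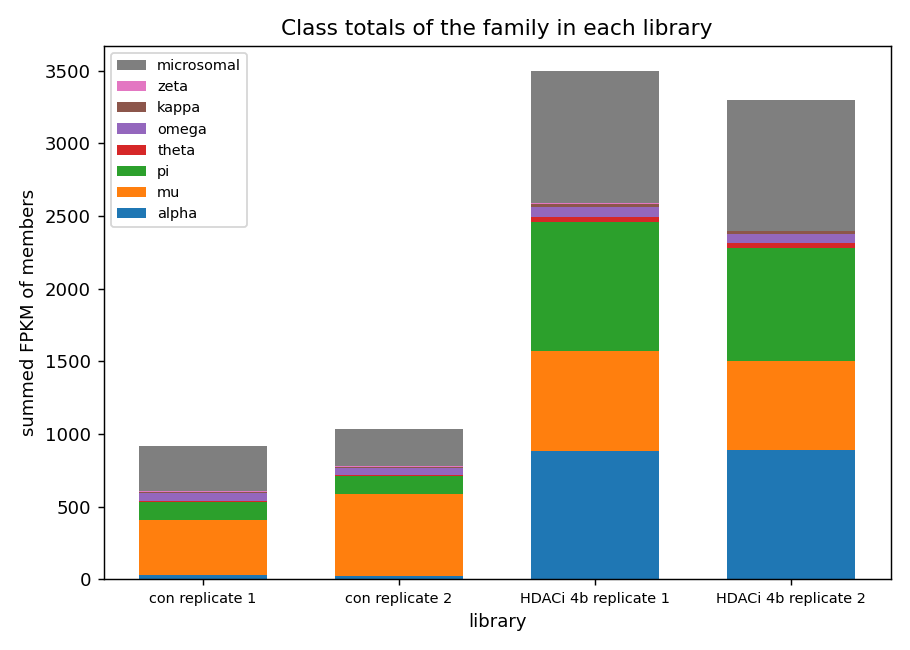
Summed FPKM of the members of each class, stacked, in each of the 4 libraries. The family total is 919.9 and 1038 FPKM in the con bars and 3495 and 3297 FPKM in the HDACi 4b bars, with the alpha block growing from 28.2 to 884.6 FPKM on average and the mu block from 470.9 to 653.1 FPKM.

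Other copies outside the family rule, named here after their values were seen, were few in reads. Gm3776, which holds 75.7% of the Gsta1 stretches, was listed at 0 in both con libraries and at 0.564 and 1.86 FPKM with HDACi 4b, on 8 and 26 reads. Gm10639, which holds 31.8% of the Gsta2 stretches, was listed at 0 in con and had 2 and 4 reads with HDACi 4b. Gstm2-ps1 was at 4.35 and 8.36 FPKM in con and at 9.10 and 8.87 FPKM with HDACi 4b and was not called (difference 0.50 ± 0.28, adjusted p = 0.190). Its con libraries differed in the same direction as those of Gstm1. Gstcd, left out by the rule, was at 4.69 ± 0.131 and 4.82 ± 0.0803 FPKM and was not called.

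The genes around the GSTs were described in 6 lists, read against the same 22.4% of tested genes called higher and 38.1% called lower. Of 13 tested NRF2 and AHR target genes other than GSTs, 12 rose, none fell and 1 was not called, with a median difference of 1.77 beside -0.15 for all tested genes. Nqo1, a quinone reductase, went from 1.02 ± 0.105 to 40.5 ± 2.30 FPKM, a difference of 4.36 ± 0.083 (adjusted p = 4.57e-05). Cbr3, a carbonyl reductase, went from 6.37 to 119.9 FPKM (difference 4.04 ± 0.13) and Srxn1, which repairs peroxiredoxins, from 14.6 to 181.0 FPKM (difference 3.54 ± 0.14). Fth1, the ferritin heavy chain, went from 852.6 to 5771 FPKM (difference 2.76 ± 0.068). On the log2(FPKM + 1) scale the differences of Nqo1 and Cbr3 lay between those of Gstm6 and Gsta4, and those of Srxn1 and Fth1 were smaller than that of Gstm6. That scale understates genes with low FPKM. By ratio of means Nqo1 (39.6) lay above Gsta4 (26.3). Cbr3, on its means of 6.37 and 119.9 FPKM, lay below Gstm6 (23.9) by ratio, unlike on the log2 scale. Srxn1 (12.4) and Fth1 (6.77) again lay below Gstm6.

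Of 12 tested genes of glutathione synthesis and recycling, 7 rose, 1 fell and 4 were not called, but 3 of the 7 (Slc7a11, Cbs and Ggct) had con means under 1 FPKM and were tested only because of their treated level. Over the other 9, with both group means at 1 FPKM or more, 4 rose, 1 fell and 4 were not called, with a median difference of 0.23. Slc7a11, the cystine carrier and 1 of those 3, went from 0.271 to 4.54 FPKM (difference 2.12 ± 0.11, adjusted p = 0.000182). Cbs, which starts cysteine synthesis from homocysteine and is also 1 of those 3, went from 0.687 to 4.67 FPKM (difference 1.75 ± 0.12, adjusted p = 0.000317). Gclc, the catalytic subunit of the first step of glutathione synthesis, went from 18.6 ± 1.604 to 55.4 ± 3.36 FPKM (difference 1.53 ± 0.087, adjusted p = 0.000218). Chac1, which breaks glutathione down, fell from 10.03 ± 3.68 to 1.10 ± 0.148 FPKM (difference -2.35 ± 0.25, adjusted p = 0.00192).

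Other enzymes that use glutathione showed no common direction. Of 13 tested, 4 rose, 4 fell and 5 were not called, with a median of -0.02. Esd, which acts on a glutathione ester in formaldehyde removal, rose by 2.01 ± 0.065 and the phospholipid hydroperoxidase Gpx4 by 1.19 ± 0.079. The peroxidases Gpx7 and Gpx1 fell, with differences of -1.88 ± 0.14 and -1.43 ± 0.060. Of 15 tested genes of conjugate export and mercapturate formation, 9 rose, 3 fell and 3 were not called (median 0.36). Only 5 of the 9 higher calls and 1 of the 3 lower calls held in all 9 alternatives. In this list Abcc1, a pump for glutathione conjugates, went from 4.46 to 15.8 FPKM (difference 1.63 ± 0.084, adjusted p = 0.000176) and Ggt7 from 2.27 to 9.65 FPKM (difference 1.70 ± 0.13, adjusted p = 0.000497).

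Structural relatives of the GSTs outside the rule moved in both directions. Of 9 tested, 2 rose, 3 fell and 4 were not called (median -0.10). Among the 3 that fell, 1 had a treated mean under 1 FPKM and was tested only through its con level. Over the 7 with both group means at 1 FPKM or more, 1 rose, 2 fell and 4 were not called. Gdap1l1, at 0.102 FPKM in con and so tested only through its treated level of 2.22 FPKM, was higher by 1.54 ± 0.13 and Ptges, the prostaglandin E synthase of the MAPEG group, by 1.43 ± 0.071. Of 11 tested regulators of detoxification genes, 2 rose, 5 fell and 4 were not called (median -0.24). The 2 higher calls held in every alternative that tested them, and only 2 of the 5 lower calls held in all 9. Ahr, the aryl hydrocarbon receptor, fell from 16.9 ± 1.24 to 5.48 ± 0.434 FPKM (difference -1.47 ± 0.089, adjusted p = 0.000256), and Nfe2l3, with a con mean under 1 FPKM and tested only through its treated level, went from 0.294 to 2.12 FPKM (difference 1.27 ± 0.12, adjusted p = 0.000895). Nfe2l2, which encodes NRF2, and its repressor Keap1 were picked out after their values were seen. Nfe2l2 rose from 41.6 and 45.0 FPKM to 87.7 and 81.3 FPKM (difference 0.95 ± 0.075, adjusted p = 0.000501). Keap1 went from 9.90 and 10.3 FPKM to 7.90 and 8.80 FPKM (difference -0.25 ± 0.081, adjusted p = 0.0433), which did not pass in 6 of 9 alternatives (adjusted p up to 0.266). These are transcript levels, and neither NRF2 protein nor its binding was measured.

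**Figure D4:**
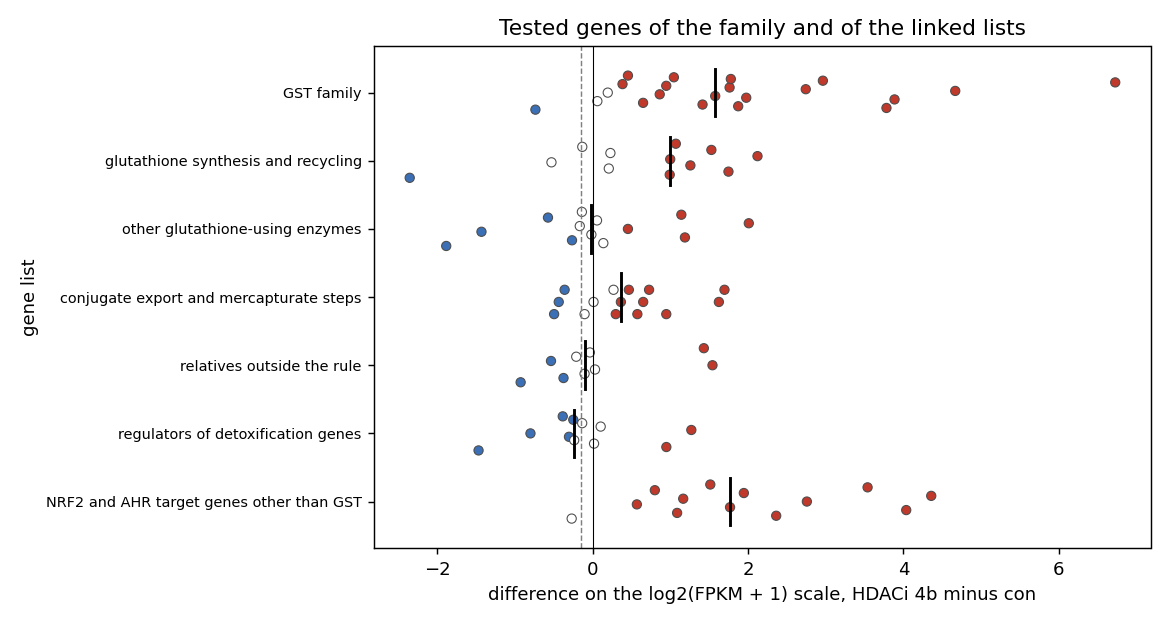
Difference on the log2(FPKM + 1) scale, HDACi 4b minus con, of every tested gene of the GST family and of the 6 linked lists. Filled red points rose, filled blue points fell, open points were not called, thick bars are list medians and the dashed line is the median of all tested genes. The medians are 1.58 for the 21 tested members (5 of which passed the filter only through the treated libraries), 1.77 for the NRF2 and AHR targets, 1.00 for glutathione synthesis (3 of 12 passed only that way) and between -0.24 and 0.36 for the other 4 lists.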

How the data were processed

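RNA from 4 libraries (2 con, 2 HDACi 4b) was sequenced from a TruSeq kit that does not mark strand, so overlapping antisense reads cannot be told apart. The authors deposited 1 table of FPKM per gene and library. Per the labels the notes name Bowtie (0.12.2) and mouse build mm8. The exon lengths behind the FPKM values matched the GENCODE M21 models of GRCm38 for most genes, so no gene coordinates of the table are printed. The deposited columns name no unit, and FPKM was read from the values, which step with exon length. No source read here tells how the authors handled reads shared by copies.

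Levels were tested with limma 3.58.1 (R 4.3.3; trend and robust empirical Bayes, groups only, no covariate) on log2(FPKM + 1) for the 12054 genes whose mean reached 1 FPKM. The call was an adjusted p under 0.05. The test was also run on simulated data, in which far fewer genes changed than were called here. Reads were recovered as FPKM times M21 exon length times library total. They were whole, within 0.001 reads, in all libraries for 21606 of 23877 genes matched to a model (90.5%) and for 20 of the 25 members. Gsto1, Gsto2, Gstp1, Gstp2 and Gstp3, on chromosome 19, gave reads only up to a common factor, and the smallest whole reads are used. Shared stretches were counted over 50-base windows of the exons. Ratios are of mean FPKM, and 95% intervals of read ratios are exact Clopper-Pearson intervals.

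Named genes were every member and, from each linked list, up to 4 called genes with the greatest absolute difference of at least 1. The members, lists and rules were chosen with earlier results of these data known. Alternatives were a pseudocount of 0.1, no filter, a replicate block, median-ratio scaling, leaving out each library, and limma-voom on whole reads (a minimum of 10 in 2 libraries). Sequences were read with biopython 1.88.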

Additional observations from a re-analysis of the deposited data

How the results depend on the processing

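Of the 18 members called higher, 16 kept their call under all 9 alternatives, and the exceptions were Gstm2 and Gsto1 without either HDACi 4b library. The count of higher members ranged from 16 to 20 and that of lower members was 1 throughout. The number of genes called fell from 7297 to 4504 without HDACi 4b replicate 1, within a leave-one-out range of 4504 to 6760, and was 9114 with limma-voom on recovered reads. Called genes of the linked lists numbered 52 and ranged from 40 to 61. Leaving out 1 library leaves a group with 1, whose spread is then assumed to be that of the other group. Leaving out 1 library turned the sign of Gstm1 without con replicate 1 (range -0.14 to 0.53) and of Gstt2 without con replicate 2 (-0.024) and without HDACi 4b replicate 2 (range -0.16 to 0.29), and the cause was not tested. Median-ratio scaling moved the class ratios by its own construction, to 34.97 for alpha, 3.70 for kappa, 3.50 for microsomal, 1.46 for omega, 7.55 for pi, 5.79 for theta and 3.86 for the family. It also set 3433 genes higher and 3389 lower, against 2700 and 4597. Leaving out 1 library at a time gave ratios of 29.0 to 34.4 for alpha, 2.87 to 3.47 for microsomal, 1.16 to 1.73 for mu, 6.34 to 7.23 for pi and 0.486 to 0.612 for zeta.

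With the replicate number as a block, 7315 genes were called, with 18 members higher and 1 lower, so the block changed no count of members. The numbers come from the titles and nothing ties same-numbered libraries together. Deviations of the same-numbered pairs had a correlation of 0.088. Depth limits Gsta1, Gstm3, Gstp2, Gstp3 and Gstt4, whose con libraries hold 0 to 2 reads each.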
